A study of Mus musculus with 6 samples.

Results

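The genes described here are 9 genes of rod phototransduction and of the rod outer segment: Gnat1, Gnb1, Pde6a, Pde6b, Pde6g, Sag, Cnga1, Rom1 and Prph2. They were chosen by symbol among the 22026 gene symbols measured, with the values of both ages already in view, so that their difference between ages is given below as a description and without a test. RNA was sequenced from choroid endothelial cells (ECs) of mice at postnatal day 5 (P5) and day 30 (P30). Each age was represented by 3 separate isolations that pooled 7 animals apiece. The P30 animals were 129/B6 mice of both sexes, while strain and sex are not stated separately for P5. No transgene or treatment other than the labelling antibody is named for either age. A fluorescent antibody against VE-Cadherin, which joins ECs to one another, was injected behind the eye of the living animal, the neural retina was removed, the layer holding the retinal pigment epithelium (RPE) and the choroid was digested, and labelled cells were sorted and lysed. The values are FPKM as deposited, fragment numbers scaled to transcript length and library size, so that levels of different genes can be set side by side per length. Sequencing depth is unknown, which leaves counting error without an estimate. A gene listed at 0 is called only that, since some widely used genes were also near 0.

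Rods are the retinal photoreceptors of dim light. In their outer segment, a stack of membrane discs, the light-activated visual pigment switches on the G protein transducin, transducin relieves the block on the phosphodiesterase PDE6, and PDE6 breaks down cyclic GMP so that cyclic GMP-gated cation channels close. Arrestin ends the signal at the pigment, and tetraspanins hold the rims of the discs in shape. In mice the outer segments grow after birth, and the RPE, which touches their tips, engulfs shed discs each day.

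The transcription factors CRX and NRL switch on many rod genes, and their core recognition letters were therefore looked for at the starts of the members. RefSeq windows on GRCm38.p6, from 250 bases before to 50 bases after the start, were matched by symbol for 6 of the 9 members. The letters TAATCC (CRX core), read on both strands, were held by 2 of these 6 windows, Sag and Cnga1, and by 7.06% of the 32851 windows of the same length over all genes. The letters TGCTGA (NRL core), also read on both strands, were held by 2 of the 6, Sag and Pde6b, and by 19.5% of all windows. Both together stood in Sag and in 1.36% of all windows, and the matches in Sag did not overlap. In Sag the NRL core began 187 bases before the start, and the CRX core, on the opposite strand as GGATTA, began 87 bases before it. The CRX core of Cnga1 began 228 bases before the start, and the NRL core of Pde6b 8 bases before it. A match describes letters only, and its absence says nothing of the factor. The 4 windows below are shown because they set the member with both motifs beside 2 disc-rim genes without them and beside Gnb1, the member whose level behaved differently. They lie at chr1:87803430-87803729 (plus strand) for Sag, chr19:8929307-8929606 (minus strand) for Rom1, chr17:46910228-46910527 (plus strand) for Prph2 and chr4:155491111-155491410 (plus strand) for Gnb1. Each is written 5′ to 3′ along its gene, and capitals mark motif letters.
Sag: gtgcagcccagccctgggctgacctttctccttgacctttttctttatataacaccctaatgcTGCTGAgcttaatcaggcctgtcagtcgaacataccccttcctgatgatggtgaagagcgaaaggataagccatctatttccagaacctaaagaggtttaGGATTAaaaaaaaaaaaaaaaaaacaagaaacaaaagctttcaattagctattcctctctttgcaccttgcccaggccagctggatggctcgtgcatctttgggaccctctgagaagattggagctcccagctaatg
Rom1: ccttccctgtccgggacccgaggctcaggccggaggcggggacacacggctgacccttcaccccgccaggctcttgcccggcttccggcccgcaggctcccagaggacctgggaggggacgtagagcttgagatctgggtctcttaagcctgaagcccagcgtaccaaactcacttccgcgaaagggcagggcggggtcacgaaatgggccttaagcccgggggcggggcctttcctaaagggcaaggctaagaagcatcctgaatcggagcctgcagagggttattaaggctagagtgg
Prph2: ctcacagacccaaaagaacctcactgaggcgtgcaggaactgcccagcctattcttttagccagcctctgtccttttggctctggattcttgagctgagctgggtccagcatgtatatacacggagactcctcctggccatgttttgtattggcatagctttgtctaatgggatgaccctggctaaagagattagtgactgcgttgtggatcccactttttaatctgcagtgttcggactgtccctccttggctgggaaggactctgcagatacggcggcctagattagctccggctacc
Gnb1: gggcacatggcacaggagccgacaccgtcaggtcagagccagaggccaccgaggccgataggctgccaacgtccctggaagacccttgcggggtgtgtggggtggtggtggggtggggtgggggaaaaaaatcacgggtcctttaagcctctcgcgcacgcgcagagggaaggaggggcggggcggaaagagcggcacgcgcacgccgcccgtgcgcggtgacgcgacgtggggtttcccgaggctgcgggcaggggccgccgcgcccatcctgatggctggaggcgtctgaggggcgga

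The windows differed in base composition. The G and C content was 70.3% in Gnb1 and 64.0% in Rom1, against 51.7% in Prph2, 51.3% in Pde6b, 44.7% in Sag and 41.3% in Cnga1, with a median of 52.7% over all windows. Gnb1 and Rom1 had the highest content among the 6 members with a window, and were also the 2 members of the highest level at P5. The content of the 3 members without a window is unknown, and a link between content and level was not tested.

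Before the members are described, the isolations must be. The 11 endothelial genes summed to between 23987 and 26275 FPKM at P5 and between 34012 and 41979 FPKM at P30. Markers of the labelled cell type were thus high in every isolation, but they did not all move alike between ages. Of the 11, 9 had a positive difference and 2 a negative one, Cdh5 and Pecam1. Cdh5, which encodes the VE-Cadherin used for sorting, had a mean of 2971 FPKM at P5 and 1885 FPKM at P30, without overlap. Plvap, the highest of the list, had means of 4692 and 11590 FPKM. P30 replicates 1 and 2 stood apart from P30 replicate 3 in some genes but not over all. Across genes the correlation was 0.971 between P30 replicates 1 and 2, 0.974 between 2 and 3, and 0.965 between 1 and 3. In 41 of 75 ribosomal protein genes, P30 replicates 1 and 2 both exceeded replicate 3 by more than 2-fold. The same held for 4.27% of the genes tested. The ribosomal list was chosen by symbol after values were seen, and 62 of the 75 were lowest in replicate 3 among the P30 isolations. Gapdh, a glycolytic enzyme of every cell, was listed at only 15.29 to 32.08 FPKM, and the ribosomal protein gene Rps23 at 33.39, 69.27 and 38.77 FPKM at P5 and at 0.05, 0.04 and 0.06 FPKM at P30. Rpl26 was likewise at 25.13, 9.55 and 9.36 FPKM at P5 and at 0.05, 0.06 and 0.05 FPKM at P30, and the part that quantification has in the differences between ages, those of the members included, was not tested. The following results are given per isolation, and the main ones also from P30 replicate 3 alone.

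**Figure D1:**
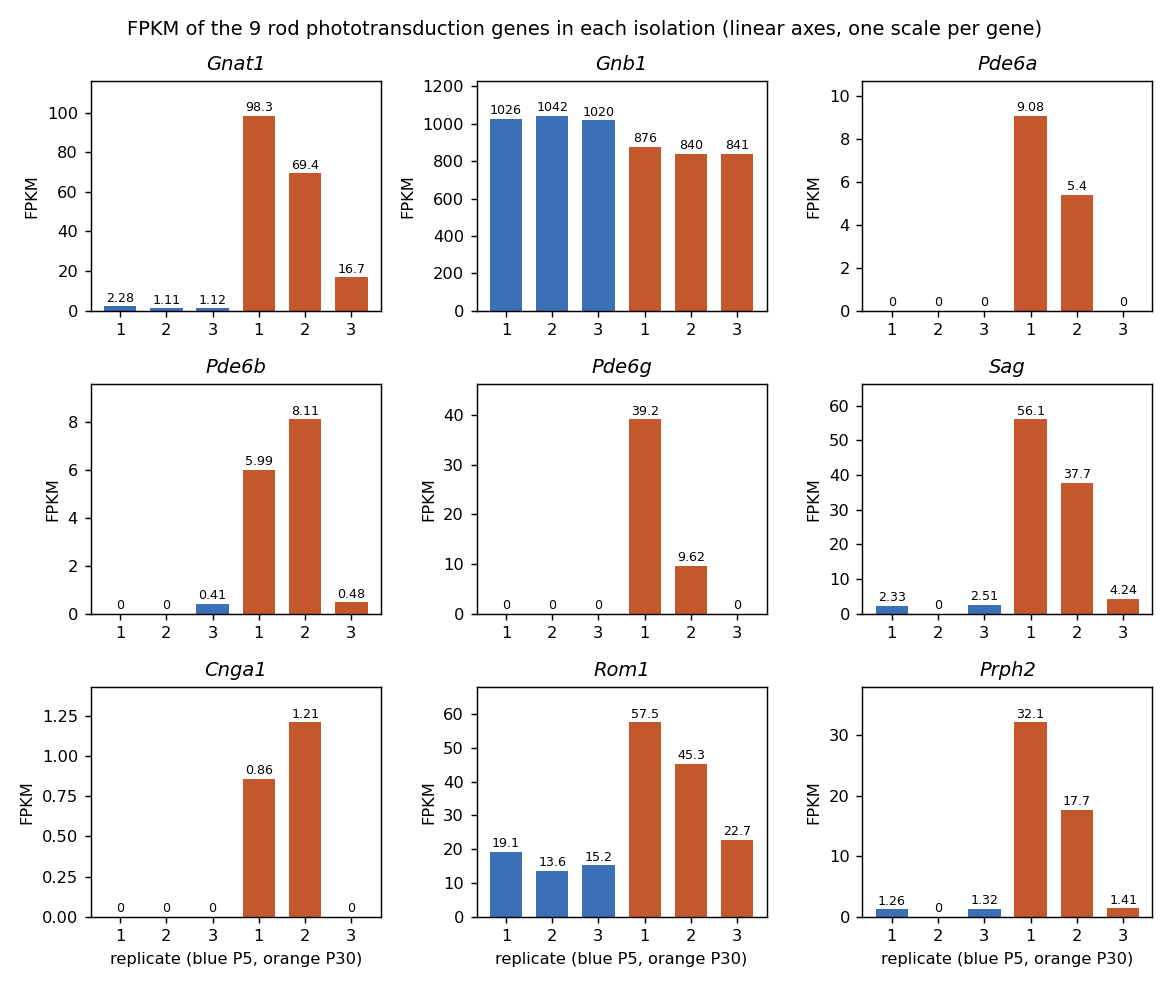
FPKM of each of the 9 members (vertical axis, linear, with its own scale per gene) in the 3 P5 isolations (blue bars) and the 3 P30 isolations (orange bars), with the value above each bar. In 8 members P30 replicate 3 was the lowest of the P30 isolations, while Gnb1 was lower in all 3 P30 isolations (840 to 876) than at P5 (1020 to 1042).

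At P30, 8 of the 9 members were higher on average than at P5, and Gnb1 was lower. The 5 members Gnat1, Pde6b, Sag, Rom1 and Prph2 had every P30 isolation above every P5 isolation, a pattern held by 13.8% of all 22026 genes, and Gnb1 had every P30 isolation below every P5 isolation, as did 20.1% of all genes. The other 3, Pde6a, Pde6g and Cnga1, were listed at 0 in all P5 isolations and in P30 replicate 3. The difference in mean log2(FPKM + 1), on which the change of low genes is understated, had a median of 2.02 over the 9 members and of -0.10 over the 12481 genes tested, and ran from 0.68 to 4.35 among the 8 higher members. In a bulk sample, more cells of a type, more RNA per cell and RNA carried over from other cells cannot be told apart, and these values do not place the RNA in any cell.

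Transducin is built from an alpha subunit, Gnat1 in rods, and a beta and gamma pair. Gnat1 (mm9 chr9:107576808-107581923, minus strand) was listed at 2.28, 1.11 and 1.12 FPKM in P5 replicates 1, 2 and 3 and at 98.32, 69.44 and 16.74 FPKM in P30 replicates 1, 2 and 3. The ages did not overlap, the lowest P30 isolation standing 14.46 FPKM above the highest P5 isolation, the widest such gap among the 5 members that were higher in every P30 isolation. The P5 mean was 1.503 ± 0.673 FPKM (SD, n = 3) and the P30 mean 61.5 ± 41.4 FPKM (SD, n = 3), a ratio of 40.9. Replicate 1 exceeded replicate 3 by 5.87-fold within P30, so that the isolations of 1 age were themselves widely spread.

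Gnb1, the beta subunit that rod transducin shares with G proteins of many other cells, behaved otherwise. Gnb1 (mm9 chr4:154865470-154933378, plus strand) was listed at 1025.68, 1041.59 and 1019.72 FPKM at P5 and at 876.01, 839.82 and 840.86 FPKM at P30. It was high in all 6 isolations and narrowly spread, its P5 mean being 1029 ± 11.3 FPKM (SD, n = 3) and its P30 mean 852 ± 20.6 FPKM (SD, n = 3), 1.21-fold lower. Its difference of -0.27 in mean log2(FPKM + 1) compares with the median of -0.10 over all genes tested, and was -0.54 after quantile normalization and -0.44 after scaling to the same summed FPKM, under which that median was -0.08 and -0.26. Gnb1 made up between 97.6% and 98.6% of the summed FPKM of the 9 members at P5. Its share was 74.5%, 81.2% and 94.9% in P30 replicates 1, 2 and 3. The mm9 annotation places a pseudogene, Gm13171, on the opposite strand within Gnb1, and reads of both could not be separated if the counting ignored strand.

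The catalytic core of rod PDE6 is made of Pde6a and Pde6b, and Pde6g is the inhibitory subunit that transducin displaces. Pde6a was listed at 0 in all P5 isolations and at 9.08, 5.40 and 0 FPKM in P30 replicates 1, 2 and 3. It also overlaps a pseudogene on the opposite strand in mm9, Rps2-ps10. Pde6b (mm9 chr5:108817410-108861416, plus strand) was listed at 0, 0 and 0.41 FPKM at P5 and at 5.99, 8.11 and 0.48 FPKM at P30. The ages were separated in Pde6b by 0.07 FPKM alone, since P30 replicate 3 stood just above P5 replicate 3, and this member was higher in P30 replicate 2 than in replicate 1. Pde6g (mm9 chr11:120308919-120314814, minus strand) was listed at 0 in all P5 isolations and at 39.17, 9.62 and 0 FPKM at P30. The inhibitory subunit thus had the larger level per length in P30 replicate 1 and one much closer to the catalytic subunits in P30 replicate 2, and its 4.07-fold gap between these isolations was the widest of the members measured in both. Only Pde6b of the 3 subunits was above 0 in P30 replicate 3.

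Cnga1, the alpha subunit of the rod cyclic GMP-gated channel, had the lowest level of all members at P30. Cnga1 (mm9 chr5:72994935-73033991, minus strand) was listed at 0 in all P5 isolations and at 0.86, 1.21 and 0 FPKM at P30. With Pde6a and Pde6b it stayed under a mean of 5 FPKM at both ages, the minimum used for tests, and 6 of the 9 members were above it. A count over those 6 would favour genes that are high at one age, and none is given.

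Sag, the rod arrestin that binds the activated visual pigment, carried both motifs shown above. Sag (mm9 chr1:89700255-89741733, plus strand) was listed at 2.33, 0 and 2.51 FPKM at P5 and at 56.08, 37.73 and 4.24 FPKM at P30. The ages did not overlap, but P30 replicate 3 stood only 1.73 FPKM above the highest P5 isolation while P30 replicate 1 exceeded it 13.2-fold. The ratio of Gnat1 to Sag, 2 proteins of opposite action, was 1.75, 1.84 and 3.95 in P30 replicates 1, 2 and 3, so that these members kept nearly 1 proportion in replicates 1 and 2 and another in replicate 3. At P5 the ratio was lower than in any P30 isolation, at 0.979 and 0.446 in replicates 1 and 3, and could not be formed in replicate 2, where Sag was listed at 0.

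Rom1 and Prph2 encode the tetraspanins of the disc rim, which pair with one another. Rom1 (mm9 chr19:9001872-9003846, minus strand) was listed at 19.15, 13.61 and 15.19 FPKM at P5 and at 57.55, 45.34 and 22.73 FPKM at P30. It was the only member besides Gnb1 above 5 FPKM in every P5 isolation, and its P5 mean was 16.0 ± 2.85 FPKM (SD, n = 3) and the P30 mean 41.9 ± 17.7 FPKM (SD, n = 3), a ratio of 2.62. Prph2 (mm9 chr17:47047408-47061882, plus strand) was listed at 1.26, 0 and 1.32 FPKM at P5 and at 32.10, 17.67 and 1.41 FPKM at P30. P30 replicate 3 was here within 0.09 FPKM of the highest P5 isolation. The ratio of Rom1 to Prph2 was 1.79 and 2.57 in P30 replicates 1 and 2, and 16.1 in P30 replicate 3, near the 15.2 and 11.5 of P5 replicates 1 and 3. It could not be formed in P5 replicate 2, where Prph2 was listed at 0. The members just inside the non-overlapping pattern were thus Pde6b and Prph2, and just outside it stood Pde6a, Pde6g and Cnga1, tied with P5 at 0 in P30 replicate 3.

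The order of the levels per length was the same in both P30 replicates 1 and 2 for the first 4 members, Gnb1, Gnat1, Rom1 and Sag, and Cnga1 was last in both. Pde6g stood above Prph2 in replicate 1 and under it in replicate 2, and Pde6a and Pde6b also changed places. In P30 replicate 3 Rom1 passed Gnat1, followed by Sag, Prph2 and Pde6b. Rom1 was likewise second to Gnb1 in all P5 isolations. Over the 3 P30 isolations the ranges of Gnat1, Rom1, Sag, Pde6g and Prph2 overlapped, so that neighbours in this order did not differ beyond the spread between isolations, and Gnb1 was apart from all of them. Within each P30 isolation, however, Rom1 exceeded Sag, and Sag exceeded both Pde6g and Prph2.

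The isolations of P30 were ordered alike in most members. Of the 8 members without Gnb1, 6 were highest in P30 replicate 1, Pde6b and Cnga1 were highest in P30 replicate 2, and all 8 were lowest in P30 replicate 3 among the P30 isolations. The full order of replicate 1 above 2 above 3 was held by 6 of the 9 members and by 18.7% of the genes tested. In 7 members both replicates 1 and 2 exceeded replicate 3 by more than 2-fold, as in 4.27% of the genes tested. Pde6a, Pde6b and Cnga1 were under the minimum and so are not among the genes tested in either share. In Pde6a, Pde6g and Cnga1 replicate 3 was listed at 0, so that any value above 0 counted as more than 2-fold. Of the 8 members without Gnb1, P30 replicate 3 stood above every P5 isolation in 5, as it did in 22.8% of all 22026 genes.

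Summed over the 8 members without Gnb1, the FPKM was 25.02, 14.72 and 20.55 at P5 and 299.15, 194.52 and 45.60 at P30. All P30 sums were above all P5 sums, and the P5 mean was 20.1 ± 5.16 (SD, n = 3) and the P30 mean 180 ± 127 (SD, n = 3), a ratio of 8.94. With Gnb1 included the sums of the ages overlapped, with a P5 mean of 1049 ± 8.14 (SD, n = 3) and a P30 mean of 1032 ± 144 (SD, n = 3). As a share of the FPKM of all genes the 8 members were small throughout, between 0.000991% and 0.00170% at P5 and at 0.0183%, 0.0112% and 0.00290% in P30 replicates 1, 2 and 3. At P5, 13 of 27 values of the 9 members were listed at 0, against 3 of 27 at P30, all of the latter in replicate 3. Of all genes, between 34.7% and 36.0% were listed at 0 in the P5 isolations and between 33.4% and 37.3% in the P30 isolations.

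**Figure D2:**
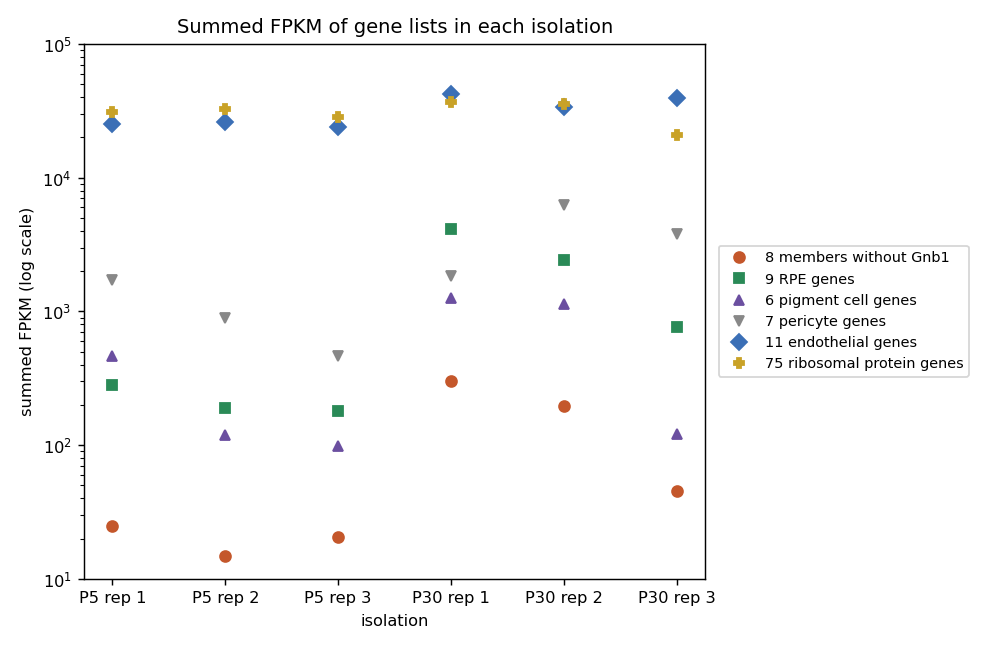
Summed FPKM (vertical axis, log scale) of the 8 members without Gnb1, 9 RPE genes, 6 pigment cell genes, 7 pericyte genes, 11 endothelial genes and 75 ribosomal protein genes in each isolation, 1 symbol per list. From P30 replicate 1 to replicate 3 the members' sum (299.15, 194.52 and 45.60) stood in the same order as the RPE sum (4139, 2412 and 761). The pigment cell sum (1262, 1126 and 121) and the ribosomal protein sum (37014, 35365 and 20841) also had this order. The pericyte sum was highest in replicate 2 (6228), and the endothelial sum was lowest there among the P30 isolations (34012).

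Markers of other cells moved with the members. The 9 RPE genes summed to 284, 188 and 181 FPKM at P5 and to 4139, 2412 and 761 FPKM at P30, and all 9 had every P30 isolation above every P5 isolation, as had 13.8% of all genes. Of these, 8 reached the minimum and 7 were higher at P30 (limma with a 2-fold minimum and an adjusted p under 0.01), against 5.89% of the 12481 genes tested, among them Rpe65, the isomerase of the visual cycle, at 2.25, 0 and 0 FPKM at P5 and 365.22, 232.64 and 50.19 FPKM at P30. That count is not given from P30 replicate 3 alone, since a fit with 1 P30 sample assumes that it varies like the P5 isolations and has less power. The members without Gnb1 came to 7.23%, 8.07% and 5.99% of the RPE sum in P30 replicates 1, 2 and 3, and to between 7.82% and 11.3% at P5. That share rested on Mertk at P5, since without this RPE receptor, which other cells also express, it was between 14.0% and 22.5% at P5 and between 7.59% and 8.73% at P30. The members and RPE genes thus kept within a narrow proportion of one another over the P30 isolations, while the members' sum differed 6.56-fold and the RPE sum 5.44-fold between replicates 1 and 3.

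The pericyte, pigment cell and endothelial genes kept no such proportion to the members. Of the endothelial sum the 8 members came to 0.713%, 0.572% and 0.115% in P30 replicates 1, 2 and 3. The 8 members came to 16.3%, 3.12% and 1.19% of the sum of 7 pericyte genes in P30 replicates 1, 2 and 3, and all 7 pericyte genes were highest in P30 replicate 2. Against the 6 pigment cell genes they came to 23.7%, 17.3% and 37.7%, and 6 of 6 of those genes were also lowest in replicate 3 among the P30 isolations. The median log2 difference between P30 replicates 1 and 3 was 2.91 in the 8 members, 2.84 in RPE genes, 3.17 in pigment cell genes, 1.32 in ribosomal protein genes, 0.14 in endothelial genes and 0.00 in all genes tested. Of the other markers, Higd1b of 7 pericyte genes and Myh11 of 4 tested smooth muscle genes were higher at P30 (5.89% of all genes tested), and Ptprc and Fcer1g of 7 haematopoietic genes were higher at P5 (5.82% of all genes tested). The median difference between ages in mean log2(FPKM + 1), 2.02 in the members, was 2.07 in pericyte and 1.82 in smooth muscle genes. It was 1.70 in pigment cell, 3.57 in RPE, 0.44 in endothelial and -1.57 in haematopoietic genes. Every P30 isolation stood above every P5 isolation in 4 of 7 pericyte, 5 of 6 smooth muscle and 0 of 6 pigment cell genes. Over all genes 13.8% held this pattern. The part of RPE, pigment cell, pericyte, smooth muscle or ribosomal RNA in the members' values was not tested.

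**Figure D3:**
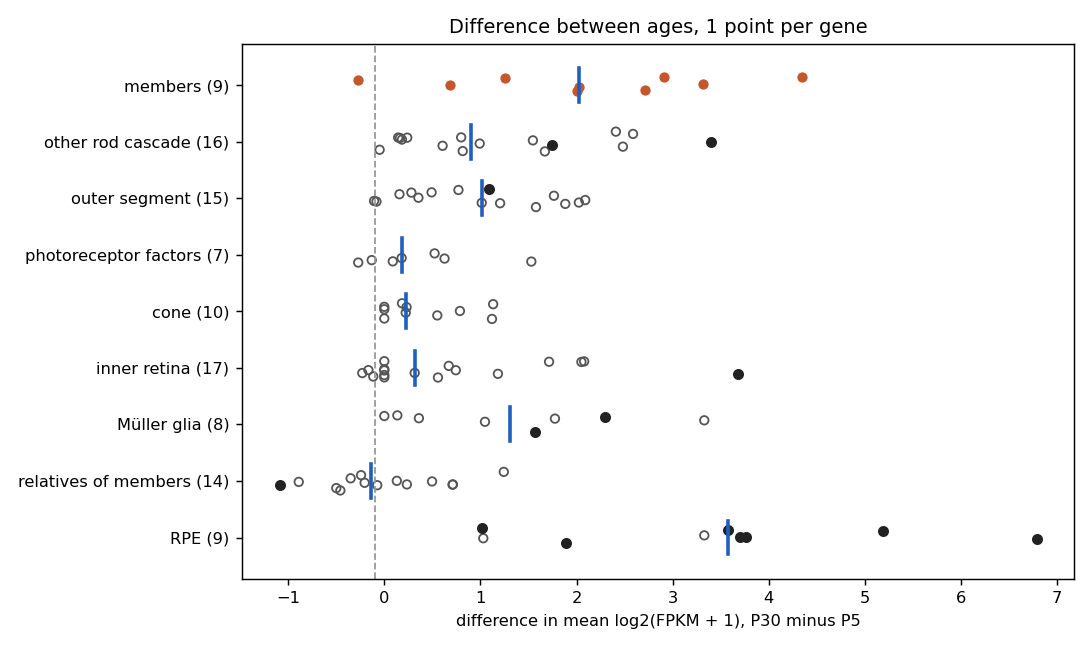
Difference in mean log2(FPKM + 1) between P30 and P5 (horizontal axis, higher at P30 to the right), 1 point per gene, for the 9 members (orange, not tested) and 8 other gene lists (filled points passed the limma limits, open points did not or were under the minimum). Blue bars are list medians, 2.02 in the members and 3.57 in the RPE genes, and the dashed line is the median of -0.10 over all genes tested.

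The rest of the rod cascade gave a mixed picture. Of 16 further genes of activation and recovery, 15 had a positive difference, with a median of 0.90, and 2 of the 11 that reached the minimum were higher at P30, where 5.89% of all genes tested were. One was Rcvrn, the calcium sensor recoverin, listed at 0 in all P5 isolations and at 16.87, 9.16 and 5.54 FPKM at P30 (limma, adjusted p = 0.00339). The other was Rgs9, which speeds the shut-off of transducin, at 54.94, 64.48 and 55.90 FPKM at P5 and 246.61, 154.91 and 201.48 FPKM at P30, with a log2 difference of 1.74 ± 0.18 (SE) and an adjusted p of 0.000525. Rcvrn followed the members' order of P30 isolations, whereas Rgs9 was lowest in replicate 2 and well above 0 at P5. Of the 16 genes, 12 were highest in P30 replicate 1 and 13 were lowest in replicate 3 among the P30 isolations, 11 of them with both other isolations over 2-fold above it.

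The 9 tested genes that did not pass showed how far replicate 3 weighed. The exchanger Slc24a1, which carries calcium out of the outer segment, was at 0.98, 0.69 and 1.43 FPKM at P5 and 20.02, 13.47 and 3.01 FPKM at P30 (adjusted p = 0.0244). Gngt1, the gamma partner of Gnat1 and Gnb1 in rods, was listed at 0 at P5 and at 10.85, 17.36 and 0 FPKM at P30 (adjusted p = 0.1003). Without P30 replicate 3, 6 genes passed in place of 2, namely Gngt1, Guca1a, Guca1b and Slc24a1 beside Rcvrn and Rgs9. When any other isolation was left out, Rgs9 alone passed. P30 replicate 3 alone, at 5.54 FPKM for Rcvrn and 201.48 FPKM for Rgs9, gave log2 differences of 2.71 and 1.77. With all isolations they were 3.40 and 1.74. Pde6d, which carries prenylated proteins in many cells, was at 103.66 to 122.60 FPKM at P5 and 118.18 to 152.20 FPKM at P30 (adjusted p = 0.176).

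Genes of the outer segment outside the cascade stood in between. Of 15 listed genes, 13 had a positive difference, with a median of 1.014, and 1 of 6 tested was higher at P30, against 5.89% of all genes tested. It was Prom1, at 190.24, 220.87 and 131.29 FPKM at P5 and 397.38, 378.40 and 359.01 FPKM at P30 (log2 difference 1.09 ± 0.18, SE, adjusted p = 0.00409). Prom1 shapes disc membranes in rods and is made by other cells as well. Abca4, the retinoid flippase of the discs, was at 2.25, 1.95 and 1.91 FPKM at P5 and 20.03, 18.20 and 4.34 FPKM at P30 (adjusted p = 0.0231). It shared with Sag and Prph2 the low value of P30 replicate 3.

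The factors that drive photoreceptor genes had a median difference of 0.18 over the 7 listed, 5 of them positive and 2 negative. Nrl was listed at 1.24, 0 and 1.91 FPKM at P5 and at 12.15, 5.86 and 0.74 FPKM at P30 (adjusted p = 0.191), with the members' order of isolations at P30 but no separation of the ages. Crx, at 0.62, 0.49 and 1.68 FPKM at P5 and 5.03, 2.95 and 0 FPKM at P30, did not reach the minimum. Nor did Nr2e3 (difference 0.18), Neurod1 (0.09), Samd7 (0.52) and Rorb (-0.13). Of 7 photoreceptor factors 2 were tested, Nrl and Prdm1, a factor with roles in many cells, at 166.57 to 176.81 FPKM at P5 and 129.88 to 171.36 FPKM at P30 (adjusted p = 0.134).

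Cone genes, the daylight counterparts of the members, were mostly at 0 or under the minimum. Of 10 listed, the opsin Opn1mw, the arrestin Arr3 and the channel Cnga3 were listed at 0 in all 6 isolations, and Gnat2, the cone transducin, was at 0, 0.66 and 0 FPKM at P5 and 0, 3.66 and 0.83 FPKM at P30. Pde6h, the cone counterpart of Pde6g, was above 0 in P30 replicate 2 only, at 9.28 FPKM. The only cone gene to reach the minimum, Gngt2, was at 133.23 to 157.63 FPKM at P5 and 181.49 to 241.23 FPKM at P30 (adjusted p = 0.0156). The median difference of the 10 was 0.23, and whether it differs from that of the members was not tested.

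Retinal neurons other than photoreceptors and glia were looked at as well. Of 17 listed genes of bipolar, amacrine, horizontal and ganglion cells, 5 were at 0 throughout, 5 were tested and 1 was higher at P30, against 5.89% of all genes tested. It was Sncg, gamma-synuclein, at 14.33 to 16.58 FPKM at P5 and 196.90 to 232.93 FPKM at P30 (log2 difference 3.68 ± 0.13, SE, adjusted p = 2.6e-05). Sncg was nearly level over the P30 isolations, but 4 of the 17 genes had P30 replicates 1 and 2 both over 2-fold of replicate 3. Among these Trpm1, a channel of bipolar and pigment cells, was at 30.02, 3.59 and 3.62 FPKM at P5 and 60.02, 56.04 and 5.68 FPKM at P30, and Slc6a9, a glycine transporter, was at 29.49, 27.69 and 9.03 FPKM at P30. Of 8 Müller glia and astrocyte genes, Apoe and Dkk3 were higher at P30 of 5 tested, with the same share of 5.89% over all genes, and Apoe was present in all isolations at 577.60 FPKM or more.

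Relatives of the members with wide expression served to place Gnb1. Of 14 relatives, 12 were tested and 1, the beta-arrestin Arrb2, was lower at P30, as were 5.82% of all genes tested. It was listed at 95.10, 141.86 and 116.23 FPKM at P5 and 66.60, 40.05 and 59.63 FPKM at P30 (log2 difference -1.09 ± 0.22, SE, adjusted p = 0.00872). Gnb2, the beta subunit nearest to Gnb1 in level, was at 853.31 to 1002.02 FPKM at P5 and 939.97 to 1113.38 FPKM at P30 (adjusted p = 0.378). Gnb4 was at 151.97 to 169.58 FPKM at P5 and 97.33 to 140.37 FPKM at P30 (adjusted p = 0.0345). Of the relatives, Gnb2 was thus the beta subunit near Gnb1 in level, while Gnb4 was far lower in level and, like Gnb1, had every P30 isolation under every P5 isolation. Arrb1, another beta-arrestin, was at 110.62 to 120.60 FPKM at P5 and 52.12 to 82.22 FPKM at P30 (limma, adjusted p = 0.00822) and missed the 2-fold minimum. Of the arrestins, Sag was thus higher at P30 in these values, Arrb1 and Arrb2 were lower, and Arr3 was listed at 0 throughout.

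**Figure D4:**
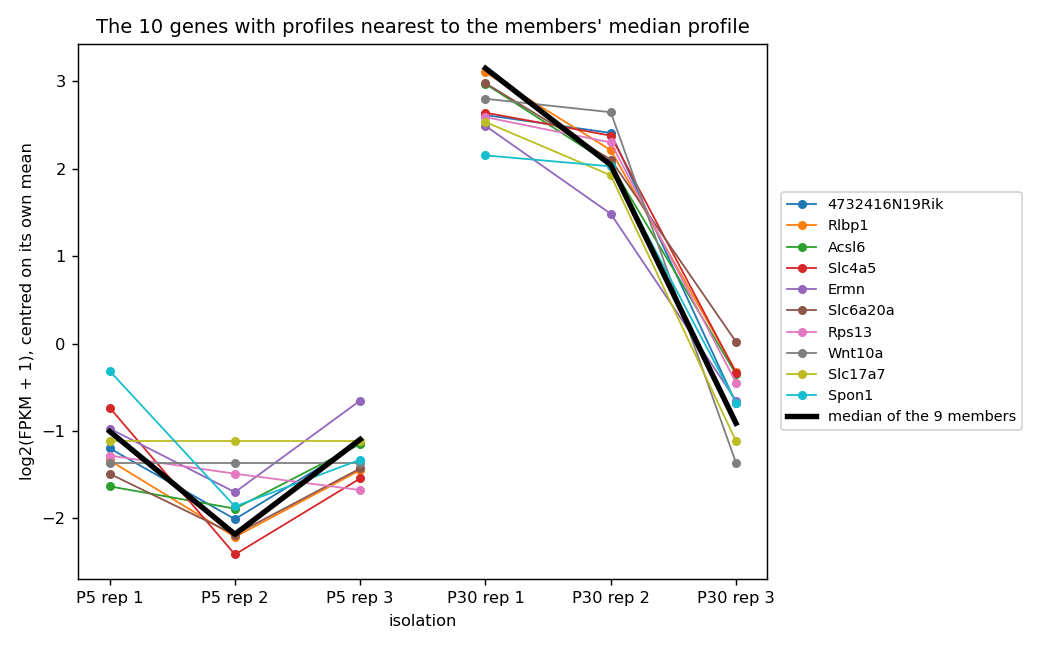
Centred log2(FPKM + 1) (vertical axis) of the 10 genes nearest in profile to the median of the 9 members (black) over the 6 isolations, with lines joining the points of 1 gene within an age. The 10 genes lay within a root mean square difference of 0.30 to 0.53 of the median profile.

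The genes most like the members in pattern were found by the root mean square difference between a gene's centred log2(FPKM + 1) and the members' median profile over the 6 isolations, which share library preparation and the low P30 replicate 3. The nearest was 4732416N19Rik (0.30), followed by Rlbp1 (0.32), Acsl6 (0.37), Slc4a5 (0.41), Ermn (0.46), Slc6a20a (0.46), Rps13 (0.50), Wnt10a (0.51), Slc17a7 (0.51) and Spon1 (0.53). Rlbp1, a retinoid-binding protein of the RPE and Müller glia, was at 10.98, 5.53 and 10.09 FPKM at P5 and 258.51, 139.16 and 23.23 FPKM at P30. Slc17a7, a vesicular glutamate transporter of neurons that photoreceptors also use, was listed at 0 at P5 and at 11.54, 7.22 and 0 FPKM at P30, the same isolations in which Pde6a, Pde6g and Cnga1 were at 0. Rps13, a ribosomal protein gene, was at 3.77 to 5.27 FPKM at P5 and at 90.67, 74.01 and 10.18 FPKM at P30, so that a gene of every cell shared the profile.

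From P30 replicate 3 alone, an alternative added after the values were seen, 5 of the 9 members were above their P5 mean on the log2 scale and 3 were at 0 at both ages. The difference in log2(FPKM + 1) was then 2.86 in Gnat1, 1.21 in Sag, 0.50 in Rom1, 0.47 in Prph2 and 0.40 in Pde6b. At this pseudocount of 1 Gnat1 had the largest difference of the members, in that isolation as over all 3, but at a pseudocount of 0.1 the difference over all isolations was 5.00 in Gnat1 and 5.07 in Pde6g, which was listed at 0 in all P5 isolations.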

How the data were processed

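RNA of sorted choroid ECs from 3 P5 and 3 P30 isolations was sequenced. FPKM were made by the authors from TopHat alignments to mm9, using CuffLinks with corrections for GC content and upper quartile, and 1 value was deposited per gene symbol and isolation. The submitters' processing notes also name CASAVA 1.8.2 and FastQC. The versions of TopHat and CuffLinks and the annotation were not given in the sources used here. Read counts were not used here, so depth is unknown. Ratios of low FPKM values between isolations showed no clear steps of single reads: the fullest bin of 0.05 in log2 ratio held between 2.68% and 4.58% of genes. Upper quartile scaling makes levels relative to the other genes of an isolation.

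Differences between ages were tested on log2(FPKM + 1) with limma 3.58.1 in R 4.3.3 (eBayes with a trend, no block) over all genes whose mean reached 5 FPKM at P5 or P30. Calls needed p-values adjusted by Benjamini-Hochberg to lie under 0.01 and ages to differ 2-fold or more. P-values set the difference between ages against the spread between separate isolations, with that spread moderated across genes. Calls numbered 735 toward P30 and 726 toward P5, or 632 and 1070 after scaling to the same summed FPKM. The fit was tested on simulated data.

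The members and gene lists were chosen with earlier results of these data known. Genes named were all 9 members, up to 5 genes past the limits and the 3 of highest mean level as the candidates in each list, and the 10 nearest profiles. Companion genes outside that rule (among them Slc24a1, Gngt1, Abca4, Nrl, Crx, Gnb4 and the cone genes) were chosen after their values were seen. Gene positions are those of GENCODE on mm9, and start windows those of RefSeq on GRCm38.p6. Alternatives were pseudocounts of 0.1 and 5, a minimum of 1 FPKM or none, a fit without trend, quantile normalization, equal summed FPKM, a replicate block, each isolation left out, and P30 replicate 3 alone. Tools were Python 3.11.15, pandas 2.3.3, numpy 2.4.6 and matplotlib 3.10.9.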

Additional observations from a re-analysis of the deposited data

How the results depend on the processing

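Of 99 values of single members under alternatives, 82 moved by less than the spread between isolations, 17 moved by more and 0 changed sign, although Pde6a, Pde6g and Cnga1 came to a difference of 0 from P30 replicate 3 alone. The number of members higher at P30 was 8 under both other pseudocounts, quantile normalization, scaling to the same summed FPKM and each isolation left out, and 5 from P30 replicate 3 alone. That alternative was chosen after seeing the data. Its tests assume that the lone P30 isolation varies like the P5 isolations, so counts of RPE and rod cascade genes passing them are not given. Its count over all genes higher at P30 is listed below only as a record. For the same reason that count cannot show whether fewer genes differ, and no conclusion is drawn from it. The log2 ratio of the summed FPKM of the 9 members was -0.0237, and -0.26 after quantile normalization, -0.20 after scaling to the same summed FPKM, -0.24 from P30 replicate 3 alone, 3.16 without Gnb1, and between -0.127 and 0.0746 with an isolation left out, the last without P30 replicate 3. Genes higher at P30, 735 in number, fell to 342 from P30 replicate 3 alone and ranged from 396 to 849 with an isolation left out (396 without P5 replicate 3, 404 without P5 replicate 2). Genes higher at P5, 726 in number, ranged from 291 to 754 (291, 297 and 427 without P5 replicates 2, 3 and 1). RPE genes higher at P30, 7 in number, were 4 without a trend, and between 1 and 7 with an isolation left out (1 without P5 replicate 3, 2 without P5 replicate 2, 4 without P5 replicate 1, P30 replicate 1 or P30 replicate 2). Rod cascade genes beside the members, 2 in number, ranged from 1 to 6 with an isolation left out. Replicates of the 2 ages share only a number, and the correlations of their deviations from the age means were -0.0618, -0.0905 and -0.0305. With the replicate block, 1 rod cascade gene, 585 genes higher at P30 and 524 higher at P5 passed. The cause of these changes was not tested. With 3 isolations per age and unknown depth, a member listed at 0 was not measurable and is not shown to be absent.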
